A study of Homo sapiens with 7 samples.

Results

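The EBF (early B-cell factor) transcription factor genes EBF1, EBF2, EBF3 and EBF4 and the EBF partner zinc finger genes ZNF423 and ZNF521 were examined in SW1990 cells. These 6 genes were chosen by name, as the EBF family and its known partners, from 20033 protein-coding genes. The choice was made with earlier results of these data known. For each gene, every H3K4me1 interval that overlapped the GENCODE release 44 gene body or the 50 kb on either side was taken (this stretch is called the window). By interval is meant a stretch that the authors called as a peak of H3K4me1 ChIP signal, with the input as control. The question was whether the EBF genes carry marked chromatin in these cells, since the study concerns EBF2 protein and H3K4me1.

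SW1990 is an established human pancreatic cancer line. Both groups carried an shRNA, a negative control one in NC and one against KMT2D in KMT2D-KD. The study describes the knockdown lines as stable, and does not say whether they were clones. KMT2D is a methyltransferase that places the H3K4me1 mark, and its own level in these cells was not analysed here. The paper checked the knockdown in SW1990 by qPCR and Western blot. From its ChIP-seq it also reports lower signal for KMT2D, H3K4me1 and EBF2 around gene starts and promoters in knockdown cells. The interval numbers and covered bases given below are another measure than that signal. ChIP-seq libraries of H3K4me1, KMT2D and EBF2 were made in both groups, 1 library per target and group, so no value below has a replicate, no test was possible and no p-value is given. The NC H3K4me1 list held 64843 intervals and the KMT2D-KD list 92135, from recovered depths of 9.89 and 9.29 fragments per 1000 bases. The windows of the 6 genes held 4 of the NC intervals and 21 of the KMT2D-KD intervals.

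EBF proteins bind DNA as dimers through a conserved zinc-binding domain and switch on lineage genes. EBF1 specifies B lymphocytes, EBF2 brown and beige fat cells, and EBF3 acts in the developing nervous system, while EBF4 is the least studied member. ZNF423 and ZNF521 are related large proteins with many zinc fingers that bind EBF proteins and can hold back their activity. ZNF423 also marks cells committed to become fat cells. H3K4me1, monomethylated lysine 4 of histone H3, typically lies at enhancers and beside active promoters.

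The cell type label was checked on marker genes in the same lists. Of 8 pancreatic ductal and epithelial markers, an H3K4me1 interval came to within 5000 bases of the start of 7 in NC, and of all 8 after KMT2D knockdown. The median coverage of their windows was 4.28% (NC) and 7.41% (KMT2D-KD), the highest of the 5 marker lists, followed by the mesenchymal markers with 2.9% and 5.23%. B cell markers had such an interval in 0 of 5 genes in NC and 1 of 5 in KMT2D-KD, and neuronal markers in 1 of 4 in both. Adipocyte markers had one in 2 of 4 in NC and 1 of 4 in KMT2D-KD, and mesenchymal markers in 1 of 4 in both. Over all protein-coding genes the share was 30.2% in NC, against 42.9% in KMT2D-KD. The epithelial markers KRT8 and KRT18 lie side by side and share intervals.

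The sequences behind the main findings are shown on the plus strand of hg38, 150 bases around the summit of an interval with the 11 bases at the summit in capitals. The first lies in an intron of EBF1, at a place with overlapping intervals in both conditions (chr5:159003712-159003861, from the KMT2D-KD interval). The second lies in an intron of EBF3 and belongs to the NC interval of that gene (chr10:129900839-129900988). The third lies in an intron of ZNF521, at the highest of the intron intervals found in KMT2D-KD (chr18:25278808-25278957).
EBF1 intron: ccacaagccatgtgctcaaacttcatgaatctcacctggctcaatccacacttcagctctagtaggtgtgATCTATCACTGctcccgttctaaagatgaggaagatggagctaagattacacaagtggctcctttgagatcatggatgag
EBF3 intron: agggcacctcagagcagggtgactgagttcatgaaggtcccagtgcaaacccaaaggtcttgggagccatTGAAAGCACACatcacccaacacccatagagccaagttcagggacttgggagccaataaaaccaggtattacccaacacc
ZNF521 intron: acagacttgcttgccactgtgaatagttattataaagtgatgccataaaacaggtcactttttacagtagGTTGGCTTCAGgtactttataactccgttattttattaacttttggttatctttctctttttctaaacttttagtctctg
The fourth is shown because it was the highest interval of all 6 windows and the sole place in them with KMT2D and EBF2 intervals. It lies beyond the 3′ end of ZNF521 (chr18:25033523-25033672), and here capitals mark runs of at least 4 copies of a repeated pair of bases.
ZNF521 3′ flank: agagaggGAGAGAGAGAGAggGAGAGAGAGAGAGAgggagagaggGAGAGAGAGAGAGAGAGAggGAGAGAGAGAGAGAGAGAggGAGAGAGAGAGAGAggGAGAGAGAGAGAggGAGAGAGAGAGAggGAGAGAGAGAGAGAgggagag
This stretch was a tandem repeat with GA as its unit, with 114 of 150 bases in capitals, whereas the other 24 intervals had tandem scores of at most 0.415. The tandem score is the highest share of bases in an interval equal to the base a fixed step before them, and it was 0.863 here.

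H3K4me1 intervals were few at these genes in NC. Only 4 intervals were listed in 2073 kb, 2 at EBF1, 1 at EBF2 and 1 at EBF3, and no interval was listed at EBF4, ZNF423 or ZNF521. In KMT2D-KD there were 21 intervals, of which 12 were at ZNF521 and 7 at EBF1, with 1 each at EBF4 and ZNF423 and none at EBF2 or EBF3. Thus 3 of 6 windows held an interval in NC, against 75.8% of all protein-coding windows, and 4 of 6 in KMT2D-KD, against 84.5%. EBF1 was the sole member with intervals in both conditions. In NC the intervals covered 1220 bases and in KMT2D-KD 7111 bases, which is 0.0588% and 0.343% of the 6 windows. Pooled over all protein-coding windows, the same share was 1.42% for NC and 2.38% for KMT2D-KD.

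**Figure D1:**
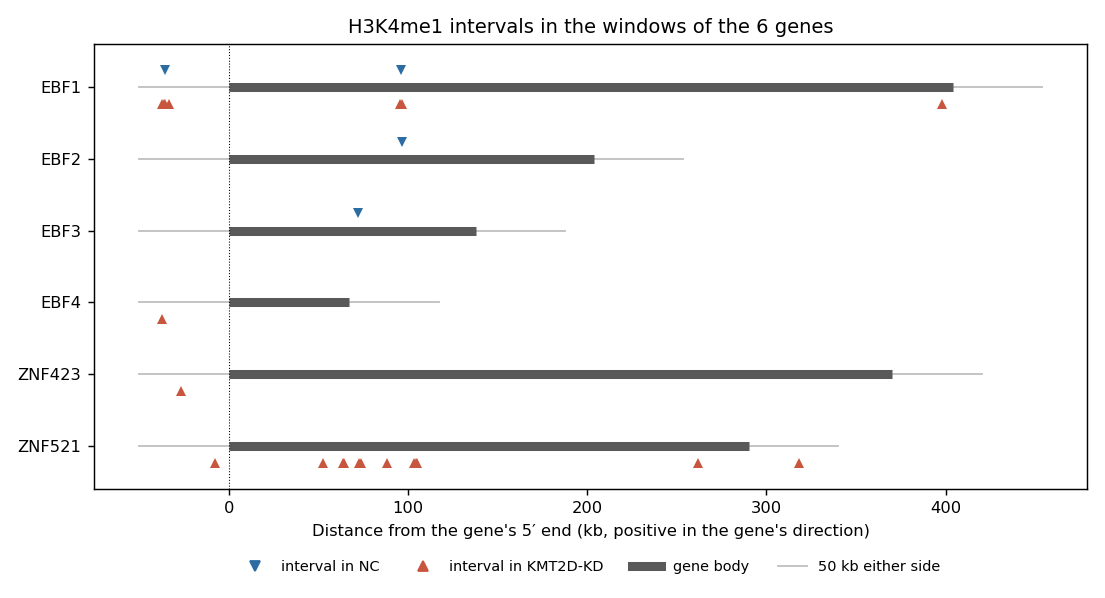
Positions of the H3K4me1 intervals along the window of each gene, with distance from the 5′ end in kb on the horizontal axis. Triangles above the line are the 4 intervals of NC and those below it the 21 of KMT2D-KD, thick bars are gene bodies and thin lines the 50 kb on either side; ZNF521 has 12 intervals in KMT2D-KD and none in NC.

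The windows were 167 to 504 kb long, and among all windows at least as long as the shortest of them 35.4% held at most 2 NC intervals, as all 6 members did. Windows of similar length to that of EBF1 (530 of them) held a median of 7 NC and 11 KMT2D-KD intervals, and EBF1 had 2 and 7. For ZNF423 the medians were 7 and 10, and the gene had 0 and 1. For EBF2 they were 5 and 8 against 1 and 0, and for EBF3 4 and 7 against 1 and 0. ZNF521 had 0 intervals in NC where the median was 7, and 12 in KMT2D-KD where it was 10.

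**Figure D2:**
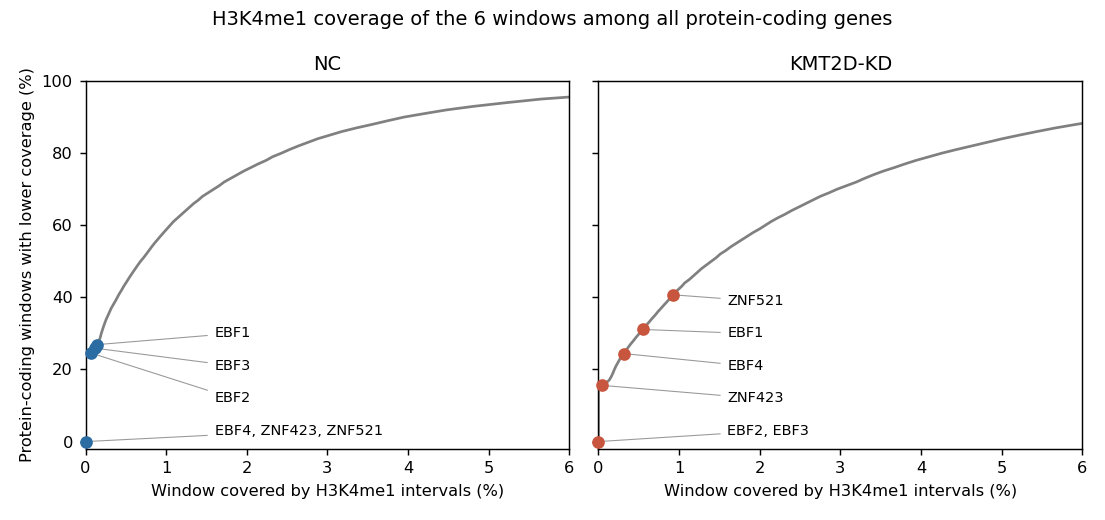
Share of each window covered by H3K4me1 intervals, in percent, against the share of the 20033 protein-coding windows with lower coverage. The grey line holds all windows and the points are the 6 genes; in NC all 6 points lie at or below 26.9%, and in KMT2D-KD the highest, ZNF521, lies at 40.7%.

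Among the 6 genes, EBF1 had the highest NC coverage, 0.148% of its window, and 26.9% of protein-coding windows had less. EBF3 followed with 0.12% and EBF2 with 0.0619%, each from 1 interval. In KMT2D-KD the order changed. ZNF521 was first with 0.929%, followed by EBF1 with 0.549%, EBF4 with 0.318% and ZNF423 with 0.0393%. The ranks of EBF2 and EBF3 in NC, and of EBF4 and ZNF423 in KMT2D-KD, each rest on 1 interval and have no replicate spread to set against them.

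None of the 6 genes had a listed interval near its 5′ end. Listing took at least 8 fragments in NC and 7 in KMT2D-KD, so weaker enrichment there would not appear. An interval came to within 5000 bases of the start of 0 of 6 genes in NC, and of 0 of 6 in KMT2D-KD, against 30.2% and 42.9% of all protein-coding genes. In NC the nearest interval was 35.7 kb from the 5′ end of EBF1, 63.9 kb from that of EBF2, 72.0 kb from that of EBF3 and 121 kb from that of EBF4. It was 308 kb away for ZNF423 and 421 kb away for ZNF521, farther than for 95% and 96.7% of protein-coding genes. In KMT2D-KD the distances were 33.0 kb for EBF1, 64.0 kb for EBF2, 52.5 kb for EBF3, 37.0 kb for EBF4, 26.5 kb for ZNF423 and 7.68 kb for ZNF521. The 6 distances had a median of 96.4 kb (NC) and 35.0 kb (KMT2D-KD), where all protein-coding genes had medians of 20.4 and 8.83 kb. Distances were also counted from any annotated transcript start. In NC the nearest interval was then 15.1 kb away for EBF1, 293 kb for ZNF521 and at least 58.5 kb for the others. In KMT2D-KD it was 2.49 kb away for ZNF521, 5.85 kb for EBF1 and at least 26.5 kb for the other 4 genes. The 1000 bases at the 5′ end ranged in GC content from 42.7% at EBF1 to 81.9% at EBF4.

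The promoter sequences of EBF1 and EBF3 are shown as examples of starts without a listed interval nearby, with few and many CpG sites. They are the 250 bases before the RefSeq gene start (GRCh38.p14) on the minus strand, with CpG sites in capitals, for EBF1 at chr5:159097957-159098206 and for EBF3 at chr10:129964275-129964524. RefSeq promoters were matched for 4 of the 6 genes. The RefSeq starts of EBF1 and EBF3 lie inside the GENCODE genes, whose 5′ ends are at 159099916 and 129973053. The distances given for these promoters therefore differ from those above.
EBF1 promoter: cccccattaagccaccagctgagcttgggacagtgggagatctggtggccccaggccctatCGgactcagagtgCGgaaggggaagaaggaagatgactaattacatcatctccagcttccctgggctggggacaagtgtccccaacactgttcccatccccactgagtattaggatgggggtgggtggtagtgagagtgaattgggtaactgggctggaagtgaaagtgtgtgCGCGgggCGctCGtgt
EBF3 promoter: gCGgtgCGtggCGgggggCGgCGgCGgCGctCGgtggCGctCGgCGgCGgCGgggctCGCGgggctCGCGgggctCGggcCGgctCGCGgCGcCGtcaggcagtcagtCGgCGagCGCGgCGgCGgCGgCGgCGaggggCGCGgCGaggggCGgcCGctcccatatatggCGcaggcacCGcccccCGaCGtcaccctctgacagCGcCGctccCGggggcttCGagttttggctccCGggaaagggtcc
The EBF1 stretch had 6 CpG sites, more than 38.1% of 35116 promoters, and the distance to the nearest H3K4me1 interval was 37.7 kb in NC, against 35.0 kb in KMT2D-KD. The EBF3 stretch had 46 CpG sites, more than 99.6% of promoters, and the nearest interval was 63.2 and 61.3 kb away. EBF4 had 37 CpG sites, and the 2 promoters of ZNF423 had 8 and 24. CCCNNGGG, the core that EBF proteins recognise and which reads the same on both strands, occurred 2 times in the EBF4 promoter and 1 time in that of EBF3. It also occurred 2 times in the inner ZNF423 promoter, and not in the outer one or in the EBF1 promoter. Over all promoters of this length 17.1% held it.

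EBF1 had the most intervals and covered bases of the EBF genes in both conditions. In NC, however, EBF3 had more intervals per 100 kb of its window, 0.42 against 0.397. The EBF3 interval also had a higher −log10 q, 4.86 against 2.85 and 2.96 at EBF1. EBF1 is read from the minus strand of chromosome 5, between 158695920 and 159099916. It had overlapping intervals in both conditions at 2 places, which shared 317 bases in an intron and 36 bases upstream. Within an intron, 95.9 kb from the 5′ end in NC, an interval ran from 159003552 to 159004010 with 3.43-fold enrichment over the background. Its −log10 q, in which a higher value means a lower false discovery rate, was 2.85. It rested on 13 fragments at the summit over a background of 3.09. The KMT2D-KD interval at this place, from 159003694 to 159004106, was enriched 4.63-fold (−log10 q 5.34), with 15 fragments over 2.46. Upstream of the gene, NC had an interval enriched 3.79-fold at a distance of 35.7 kb. KMT2D-KD had 4 intervals there, between 33.0 and 37.3 kb from the 5′ end, with fold enrichments of 3.38 to 4.37. A further KMT2D-KD interval lay in an intron 398 kb from the 5′ end, without one in NC. At EBF1, 747 bases were covered in NC and 2768 after the knockdown, which gives a log2 ratio of 1.89. Over the 14764 protein-coding windows with intervals in both lists the median log2 ratio was 0.81.

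EBF2, the protein that was immunoprecipitated in this study, is encoded on the minus strand of chromosome 8, between 25841725 and 26045413. Its window held 1 NC interval, in an intron 96.6 kb from the 5′ end, from 25948605 to 25948792. This interval was enriched 3.55-fold, with a −log10 q of 2.85 and 12 fragments at the summit, and 26.0% of the NC list had a lower −log10 q. KMT2D-KD had none in the window. More H3K4me1 lay just outside it. Between 50 and 100 kb from the gene, NC and KMT2D-KD each had 5 intervals, all upstream and intergenic, with EBF2 as the nearest protein-coding 5′ end. The nearest of these was at the same place in both, from 26109343 to 26110400 in NC and from 26109398 to 26110359 in KMT2D-KD. Its fold enrichment was 5.39 in NC and 4.22 in KMT2D-KD. The highest −log10 q of this group was 7.92 (NC) and 6.38 (KMT2D-KD).

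EBF3, on the minus strand of chromosome 10 between 129835233 and 129973053, had 1 NC interval and none in KMT2D-KD. The NC interval lay in an intron 72.0 kb from the 5′ end, from 129900780 to 129901064, enriched 4.91-fold (−log10 q 4.86). It rested on 13 fragments over a background of 1.85, the lowest of the NC list, which need not be the input at that place. In KMT2D-KD the nearest interval was 52.5 kb upstream, within the neighbouring gene C10orf143, with a fold enrichment of 5.31.

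EBF4, on chromosome 20 from 2692780 to 2760108 on the plus strand, had no interval in its gene body in NC or KMT2D-KD. The 1 KMT2D-KD interval of its window, from 2655223 to 2655754, overlapped a coding exon of NOP56, a ribosomal RNA processing gene. It lay 2.63 kb from the 5′ end of NOP56 and 37.0 kb from that of EBF4. It was enriched 5.09-fold, at a −log10 q of 5.77.

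ZNF423, on the minus strand of chromosome 16 between 49487524 and 49857919, likewise had no interval in its gene body in NC or KMT2D-KD. Such a gene body without an interval in both lists was found for 44.1% of protein-coding genes. The 1 KMT2D-KD interval of the ZNF423 window was intergenic, 26.5 kb upstream, from 49884465 to 49884649. With a fold enrichment of 3.32, 10 fragments at the summit and a −log10 q of 2.36, it was a weak interval, and only 16.2% of its list had a lower −log10 q.

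ZNF521 differed most between the libraries. The gene is on the minus strand of chromosome 18, between 25061924 and 25352190. NC had no interval in its window and KMT2D-KD had 12, of which 10 lay in introns of ZNF521. A group of 9 intron intervals lay between 52.6 and 105 kb from the 5′ end, within 52.4 kb, and covered 2775 bases. Their fold enrichments were 3.62 to 6.07, their −log10 q values 2.81 to 7.44, and 3 of the 9 had a −log10 q of at least 5. At their summits 9 to 15 fragments were counted, and the nearest NC interval was at least 315 kb from each of the 9. The highest, from 25278785 to 25279193, had 15 fragments over a background of 1.64 and a higher −log10 q than 84.0% of its list. That background was the lowest of the KMT2D-KD list, as for most of the 9. Such a background need not be the input at that place. An interval 7.68 kb upstream of the 5′ end, from 25359869 to 25360044, was weak, with 8 fragments and a −log10 q of 2.17. Weaker still was an intron interval 262 kb from the 5′ end, with 7 fragments and a −log10 q of 1.58.

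The interval with the highest −log10 q in the ZNF521 window was the tandem repeat shown above, from 25033512 to 25033834, which is 28.1 kb beyond the 3′ end of the gene. H3K4me1 had a fold enrichment of 14.6 there in KMT2D-KD and no interval in NC. The KMT2D lists had an interval at this place with fold enrichments of 65.4 (NC) and 92.1 (KMT2D-KD), and the EBF2 lists with 76.5 and 93.5. Without it, ZNF521 still had 11 intervals in KMT2D-KD and 0 in NC.

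No interval in NC and at least 12 in KMT2D-KD was found in 5 of 20033 protein-coding windows, or 0.025%, and ZNF521 was among them. This pair of numbers was set after the ZNF521 values were seen. The other 4 windows were those of PALLD on chromosome 4 and of MAST3, PIK3R2 and a gene with no symbol (ENSG00000268173) on chromosome 19, the last 2 with equal numbers of intervals and covered bases. The longer KMT2D-KD list moved with this difference. Chromosome 18 as a whole had 1052 NC and 1856 KMT2D-KD intervals, a ratio of 1.76, against 1.42 over the genome. Between 50 and 500 kb from ZNF521 the numbers were 14 and 23. With equal numbers of intervals in both lists, ZNF521 had 0 and 8. Condition and library cannot be told apart here, with 1 library per condition. Both lists were called against 1 input from cells of unstated condition, and DNA copy number in NC and KMT2D-KD cells was not tested.

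**Figure D3:**
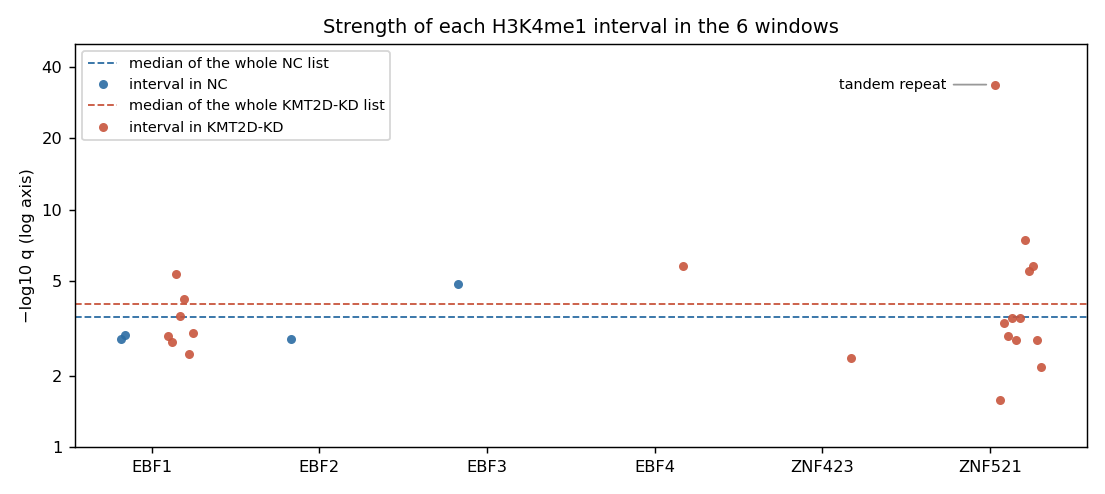
The −log10 q of each H3K4me1 interval in the 6 windows, on a log axis, with NC and KMT2D-KD intervals side by side for each gene. Dashed lines are the medians of the whole lists, 3.52 (NC) and 4.02 (KMT2D-KD); 3 of 4 NC points lie below their line, and the point at 33.7 is the tandem repeat beside ZNF521.

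Most of the 25 intervals were weak members of their lists by −log10 q. Their median −log10 q was 2.91 (NC) and 3.32 (KMT2D-KD), and the medians of the whole lists were 3.52 and 4.02. A −log10 q of at least 5 was reached by 0 of 4 NC intervals, where 25.3% of the list did, and by 6 of 21 KMT2D-KD intervals, where 32.4% did. Apart from the tandem repeat, they rested on 7 to 15 fragments at the summit, where the median of each whole list was 12. The fewest fragments at any interval were 8 in the NC list and 7 in the KMT2D-KD list, so weaker enrichment at these genes was not detectable at this depth. None of the 25 intervals lay in an exon of its own gene, 16 lay in its introns and 8 were intergenic. No such shares over the whole lists are given here, so these locations cannot be called particular to the 6 genes.

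In covered bases, 4 of the 6 windows were at least 2 times higher in KMT2D-KD (EBF1, EBF4, ZNF423 and ZNF521) and 2 were at most 0.5 times as high (EBF2 and EBF3). Of the 17338 protein-coding windows with an interval in either list, 46.7% were that much higher and 4.01% that much lower. Among the higher ones, EBF4 and ZNF423 each went from 0 intervals to 1, and that of EBF4 overlapped a coding exon of NOP56. The lower ones, EBF2 and EBF3, each went from 1 interval to 0, and of all windows with exactly 1 NC interval 12.2% had none in KMT2D-KD. Over the 6 windows the log2 ratio of covered bases was 2.54. Without ZNF521 it was 1.51, from 1220 and 3485 bases, and without EBF1 as well the bases were 473 in NC and 717 in KMT2D-KD. The pooled value over all protein-coding windows was 0.74.

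Overlap between the conditions was counted for the same intervals. Of the 4 NC intervals, 2 (50%, exact binomial 95% interval 6.76% to 93.2%) overlapped a KMT2D-KD interval, both at EBF1. Of the 21 KMT2D-KD intervals, 2 (9.52%, 1.17% to 30.4%) overlapped an NC interval. Over the whole lists 69.7% of NC and 46.6% of KMT2D-KD intervals did so. With at least 50% of the interval shared, 1 of the 4 and 1 of the 21 remained. Binomial intervals here and below cover counting error only. They treat the intervals as independent, although 9 of the 21 lay within 52.4 kb at ZNF521.

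The surroundings of the genes were compared with their windows, as intervals per 100 kb. In NC, EBF1 had 0.397 in its window and 5.78 at 50 to 500 kb from the gene, and EBF2 had 0.329 and 6.0. In KMT2D-KD the pairs were 1.39 and 7.44 for EBF1, and 0 and 7.0 for EBF2. EBF1 and EBF2 thus lay within marked surroundings that their own windows did not share. EBF3 and EBF4 lay in sparsely marked surroundings, with 0.111 and 0.444 (NC) and with 0.556 and 1.11 (KMT2D-KD). ZNF423 had 2.33 (NC) and 3.0 (KMT2D-KD) around it, and ZNF521 had 1.56 and 2.56. Over all protein-coding genes the medians were 2.44 (NC) and 4.0 (KMT2D-KD) around the gene, and 1.83 and 3.31 in the window. Fewer intervals per 100 kb in the window than around it were found for 5 of 6 genes in NC, all but EBF3, and for 5 of 6 in KMT2D-KD, all but ZNF521. Over all protein-coding genes this was so for 57.5% in NC and 54.5% in KMT2D-KD. Upstream of EBF1, 13 NC and 15 KMT2D-KD intervals lay 50 to 100 kb away within RNF145, an E3 ubiquitin ligase gene, where the highest −log10 q was 10.5 (NC) and 25.5 (KMT2D-KD).

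**Figure D4:**
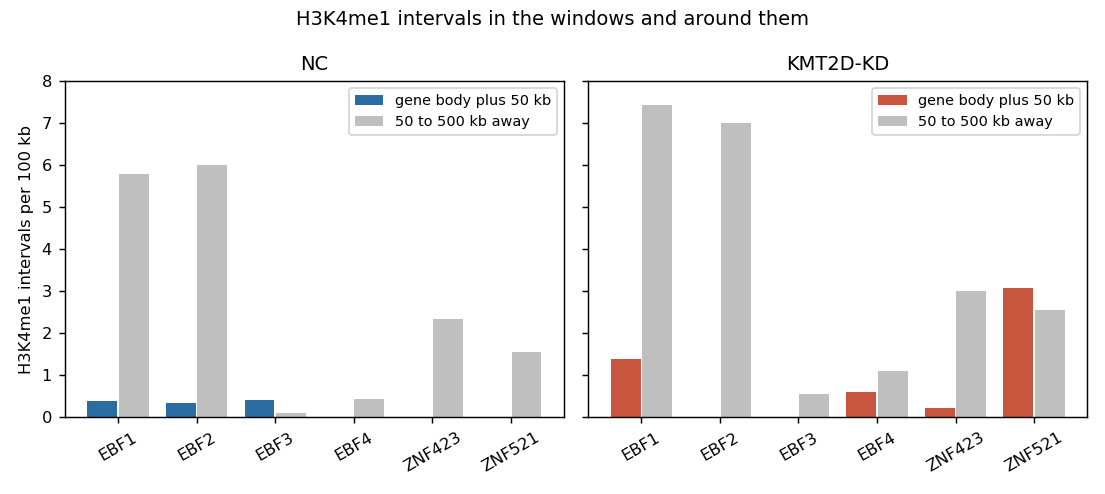
H3K4me1 intervals per 100 kb in the window of each gene (coloured bars) and at 50 to 500 kb from the gene body (grey bars), for NC and KMT2D-KD. The grey bars of EBF1 and EBF2 reach 5.78 and 6.0 in NC while the coloured bars stay at 0.397 and 0.329.

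The KMT2D and EBF2 lists were short, with 238 and 293 intervals in NC and 318 and 311 in KMT2D-KD, and 2.65% of protein-coding windows held an interval of any of them. None lay in the windows of EBF1, EBF2, EBF3, EBF4 and ZNF423. The nearest EBF2 interval was 1.22 Mb from the 5′ end of the EBF2 gene in both conditions and 11.8 Mb from that of EBF1. EBF3 had the nearest one after ZNF521, at 0.387 Mb in all 4 lists. CCCNNGGG was found in 0 of the 25 H3K4me1 intervals. On the 6 chromosomes of these genes, 8.74% of NC intervals (8.33% to 9.16%) and 10.5% of KMT2D-KD intervals (10.2% to 10.9%) held it (exact binomial 95% intervals in brackets).

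Genes downstream of the EBF proteins were counted by the same distance of 5000 bases, which 30.2% (NC) and 42.9% (KMT2D-KD) of all protein-coding genes met. Of 10 B cell genes that EBF1 activates, none had an interval that close in NC, and 2 did in KMT2D-KD, among them FOXO1 (4.97 kb away), a transcription factor. Of 7 brown fat genes that EBF2 activates, 1 had one in NC and 2 in KMT2D-KD. DIO2, the enzyme that activates thyroid hormone, had an interval 0.798 kb away in NC and 0.371 kb away in KMT2D-KD. The other, CEBPA, a fat cell regulator, crossed the limit by a small step, from 5.1 kb in NC to 4.98 kb. Of 9 co-regulators that work with EBF proteins, 2 had one in NC and 5 in KMT2D-KD. DPF3, a chromatin remodelling subunit, and SMARCC1, a core subunit, had one in both conditions. In NC the median distance to the nearest interval was 68.0 kb for the B cell genes, 62.2 kb for the brown fat genes, 52.8 kb for the co-regulators and 2.64 kb for the epithelial markers. In KMT2D-KD these medians were 20 kb, 24.1 kb, 4.97 kb and 1.02 kb. The medians of all protein-coding genes were 20.4 kb and 8.83 kb. PAX5 and FOXO1 are in both the B cell list and the co-regulator list.

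**Figure D5:**
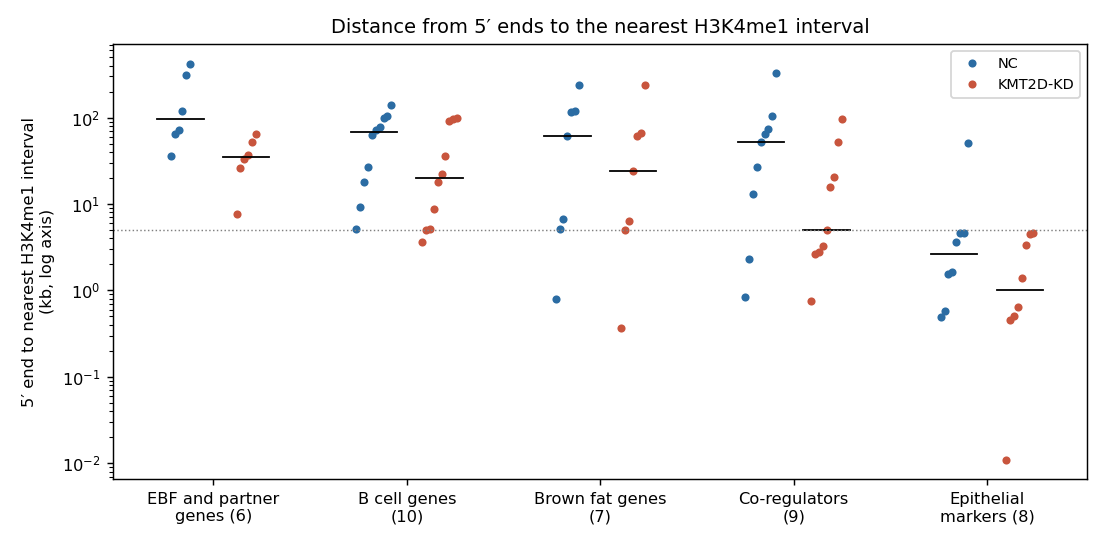
Distance from the 5′ end of each gene to the nearest H3K4me1 interval, in kb on a log axis, for the 6 EBF and partner genes, 3 lists of related genes and the epithelial markers. Points are genes, black bars medians and the dotted line 5 kb; all 6 EBF and partner genes lie above 5 kb in NC and KMT2D-KD, and 7 and 8 of the 8 epithelial markers below it.

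The genes with the most similar pair of coverages, among windows of like length, were ATP2B2 and CAMK2D for EBF1, NEO1 and GAS2 for EBF2, and TNIP3 and CMYA5 for EBF3. For EBF4 they were ZW10 and ASB18, for ZNF423 GRIK1 and ABTB3, and for ZNF521 SEZ6L and SYT16. Likeness was the distance between the percentages covered in NC and KMT2D-KD, over these 2 libraries alone. It was closest for ZW10 at 0.00081 percentage points and least close for SYT16 at 0.17.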

How the data were processed

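ChIP-seq peak lists of H3K4me1, KMT2D (MLL2 in the labels) and EBF2 were used, 6 lists from 7 samples grouped by title; the seventh sample is the input, whose condition is not given. The authors discarded low-quality reads and those containing adapter or undetermined bases, and aligned the remainder with bwa. The submitters' processing notes also name MACS2, HOMER and hg38, and each list came from 1 library against that input. Caller settings and the handling of duplicates are not given in the sources used here.

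Per interval, the deposited lists give a fold enrichment, which is a ratio of ChIP signal to a background. At some intervals the recovered background was the lowest of its list, 1.85 in NC or 1.64 in KMT2D-KD. There it need not be the input at that place. The significance columns that the authors deposited are −log10 of the p-value and −log10 of the q-value. The deposited score is 10 times the −log10 q and was not used.

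Intervals were counted where at least 1 base overlapped a window, with coordinates from 1 and distances to the first base of the GENCODE gene record. Fragments at a summit were solved from fold enrichment, taken as (fragments + 1) / (background + 1), and the Poisson p-value within 0.001 in −log10 p, which succeeded for 99.994% (NC) and 99.992% (KMT2D-KD) of the H3K4me1 intervals. Depth is the lowest recovered background divided by the narrowest interval, taken to be the fragment length. Calculations used Python 3.11.15, NumPy 2.4.6, pandas 2.3.3 and SciPy 1.17.1, and were checked on simulated intervals.

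The members and lists were chosen with earlier results of these data known. By rule, the text names for each gene and list the interval nearest to the 5′ end, the one with the highest −log10 q and the highest absent from the other condition, genes in the windows, genes of the lists and the 2 genes nearest in coverage among windows of similar length. The values of 1 gene of the B cell lists are not reported here. Other intervals, and genes beyond the windows, were named after their values were seen. Alternatives changed the window, the threshold, the list length, the overlap and the definition of the 5′ end.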

Additional observations from a re-analysis of the deposited data

How the results depend on the processing

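With 1 library per condition no replicate could be left out, and no paired analysis was possible because no replicates exist. Of 39 alternatives, 28 left a value within 1.5 times (for shares, within the counting interval), 11 moved it and 0 reversed it. This tally does not measure stability, since part of it was fixed in advance. A count of 0 cannot rise under a stricter limit or a shortened list, and counts and shares cannot reverse. The counting intervals of the shares are also wide, 6.76% to 93.2% for NC. With 100 kb either side of the genes there were 24 NC and 43 KMT2D-KD intervals, at a log2 ratio of covered bases of 0.81; wider windows take in more intervals by construction, here those in RNF145 and upstream of EBF2. With gene bodies alone KMT2D-KD had 13. At a −log10 q of at least 5 there were 0 in NC and 6 in KMT2D-KD, and at a fold enrichment of at least 5 there were 0 and 5, so no log2 ratio and no NC share could be given under these thresholds, and the KMT2D-KD share found in NC was 0. For KMT2D-KD, 1 gene had an interval within 10000 bases of the 5′ end, and 1 gene within 5000 bases of any transcript start, in both cases ZNF521. Leaving out the tandem repeat beside ZNF521, chosen after the data were seen, gave 20 KMT2D-KD intervals (log2 ratio 2.48). With equal numbers of intervals KMT2D-KD had 14 (log2 ratio 1.99). In ZNF521 alone, KMT2D-KD had 4 to 12 intervals against 0 in NC under all 8 of these window, threshold and list settings. NC had 0 even with 100 kb either side, so KMT2D-KD could not fall below it. The settings draw on the same intervals of 1 library and give no separate support. The 4 left at a −log10 q or fold enrichment of at least 5 include the tandem repeat. Depth limits these values, since an interval needed at least 8 fragments in NC and 7 in KMT2D-KD.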
